A study of Mus musculus with 24 samples.

Results

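The genes described here make, conjugate, move and sense bile acids in mouse liver. They were taken by symbol from the deposited gene table and numbered 10 of 54432 genes. Cyp7a1, Cyp8b1, Cyp27a1 and Cyp7b1 encode synthesis enzymes, Slc27a5 and Baat the conjugation enzymes, Slc10a1 and Abcb11 transporters, and Nr1h4 and Nr0b2 nuclear receptors. No symbol occurred more than once, so no measured value was needed to pick a row, and all 10 genes were among the 19810 genes tested. The genes themselves were chosen with earlier results of these data known.

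The study asked how the pseudokinase gene Trib1 and the transcription factor gene Cebpa act in liver lipid metabolism, using RNA sequencing of whole liver from 24 male C57BL/6 mice in 4 groups of 6. Every group, WT included, received an adeno-associated virus carrying Cre recombinase at 20 to 21 weeks of age. Livers were taken 4 weeks later, near midday, after a 4 h fast on a chow background. The groups were wild type mice (WT), Trib1 Flox/Flox mice (Trib1-KO), Cebpa Flox/Flox mice (Cebpa-KO) and mice floxed at both genes (DKO). The promoter that drives Cre and the deleted segments are not given in the sources used here, so a gene-level value may include exons that remain after deletion. Because whole liver was sampled, fewer cells of a type and less RNA per cell cannot be told apart.

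The targeted genes were checked first. Cebpa stood at 6019 ± 1057 normalized counts in WT (SD, n = 6), 82.2 ± 17.5 in Cebpa-KO and 82.4 ± 18.1 in DKO, and at 2668 ± 359 in Trib1-KO. The Trib1 values went against the labels: WT livers had 1224 ± 204 and those labelled Trib1-KO 4237 ± 358, with no overlap between them. Cebpa-KO had 333 ± 158 and DKO 732 ± 259. Trib1 was thus also higher in DKO than in Cebpa-KO (log2 difference 1.13 ± 0.24, SE, limma adjusted p = 0.0463), though these libraries overlapped. Groups are therefore named by their labels only, and every direction below that involves Trib1-KO or DKO belongs to libraries carrying that label. Libraries are named A1 to B3 (WT), C1 to D3 (Trib1-KO), E1 to F3 (Cebpa-KO) and G1 to H3 (DKO). They held 18636533 to 34287060 reads as estimated from the step of the values, and no 2 columns were identical. A normalized count is an estimated read count divided by a size factor of its library. Major urinary protein (Mup) genes took a median of 24.1% of the summed values in the libraries labelled Trib1-KO, against 8.14% in WT, 1.78% in Cebpa-KO and 2.62% in DKO. Hepatocyte markers, which check the labelled tissue, summed to at least 730636 in every library.

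As background, hepatocytes turn cholesterol into bile acids by a classical pathway that begins with Cyp7a1 and an alternative pathway that begins with Cyp27a1 and continues through Cyp7b1. Cyp8b1 sets the share of cholic acid, the products are coupled mostly to taurine in mice, and the pump Abcb11 exports them into bile before the carrier Slc10a1 recovers them from portal blood. The bile acid receptor FXR, encoded by Nr1h4, induces the corepressor SHP, encoded by Nr0b2, which is known to repress synthesis.

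In the libraries labelled Trib1-KO, synthesis and conjugation genes other than Cyp7a1 were lower than in WT. By limma with Benjamini-Hochberg adjustment over all genes tested, 7 of the 10 fell, 1 rose and 2 did not pass, where 22.7% of all tested genes passed (11.8% higher and 10.9% lower). With libraries scaled to their totals without the Mup genes (Mup-free scaling), and with quantile normalization, 5 fell, 2 rose and 3 did not pass: Baat and Abcb11 were not called, and Slc10a1 was called higher. In Cebpa-KO against WT, 4 fell, 0 rose and 6 did not pass (7 of the 10 had an unadjusted p under 0.05), against 9.82% of all genes passing (4.6% higher and 5.22% lower). In DKO against WT, 4 fell, 1 rose and 5 did not pass, against 6.09% of all genes (2.84% higher and 3.25% lower). The 3 comparisons share the WT libraries. Cyp8b1, Cyp27a1 and Abcb11 were called lower in each of them. The libraries of both groups did not overlap for 5 of the 10 genes in Trib1-KO against WT (12% of all genes), 4 in Cebpa-KO (5.17%) and 4 in DKO (3.11%). The median log2 difference of the 10 genes was -0.39 in Trib1-KO, -0.12 in Cebpa-KO and -0.20 in DKO, against 0.0077, 0.0089 and 0.0032 over all genes. With Mup-free scaling, higher genes made up 84.5% of all calls in place of 51.8% in Trib1-KO, 35.4% in place of 46.9% in Cebpa-KO and 35.6% in place of 46.7% in DKO.

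**Figure D1:**
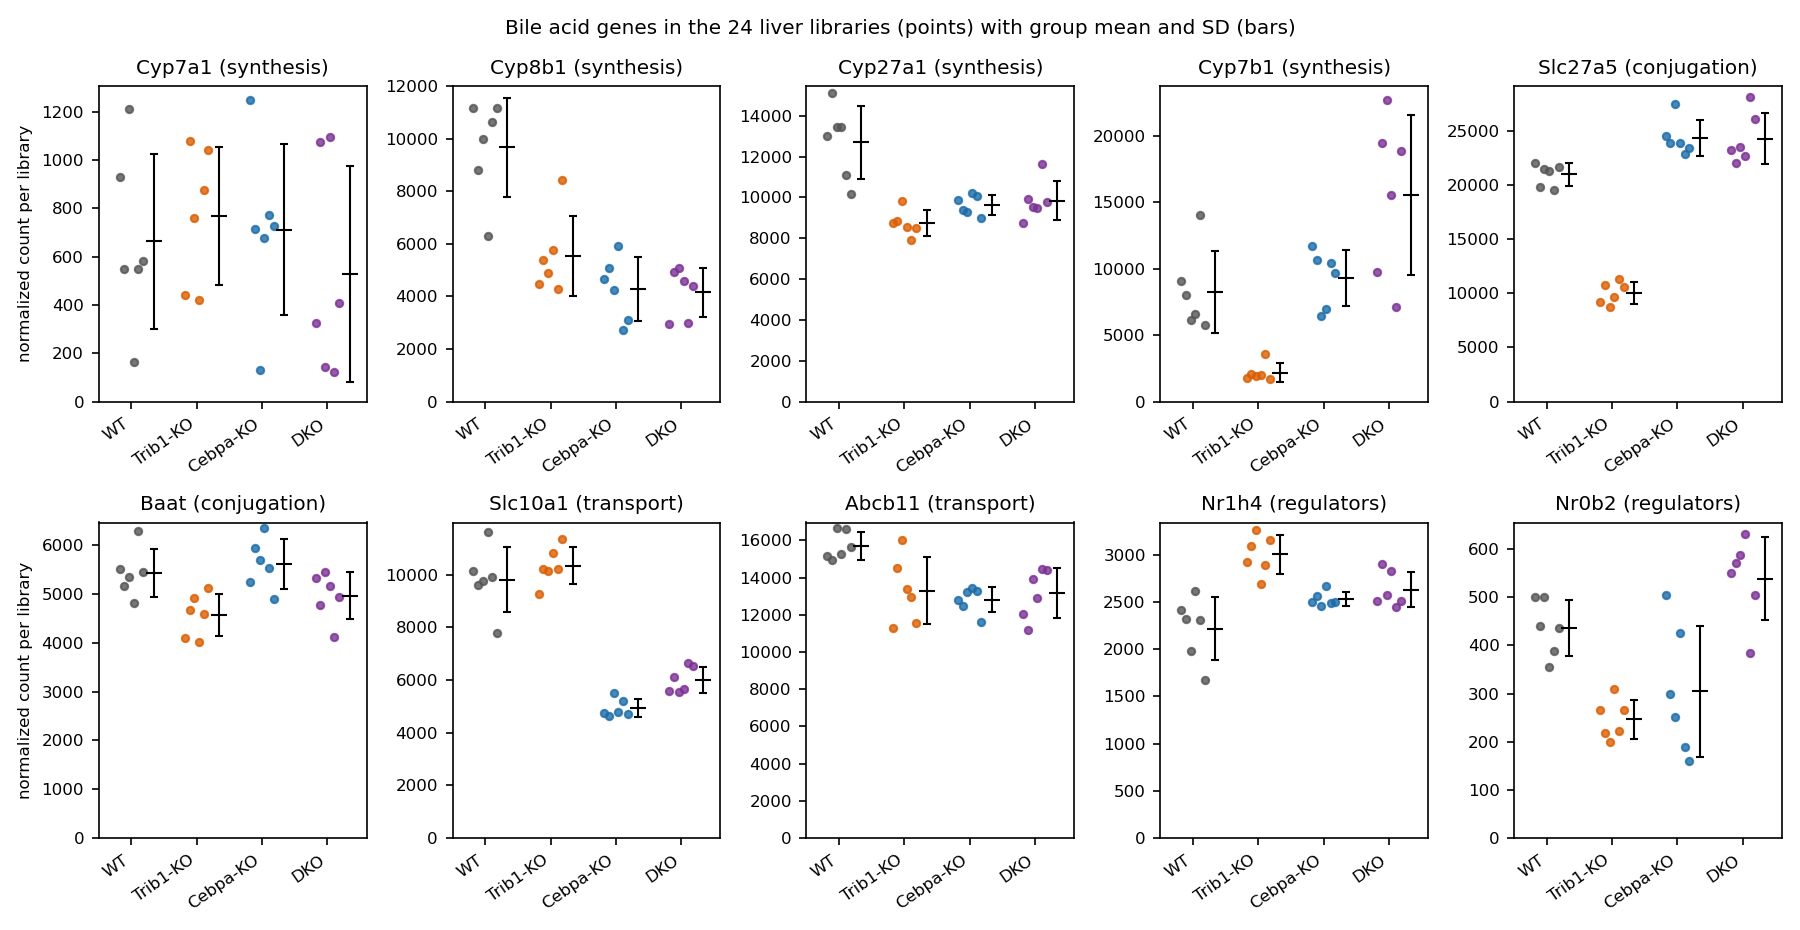
Normalized counts of the 10 bile acid genes on linear axes that start at 0, 1 panel per gene. Points are single libraries grouped by label, and bars give the group mean and SD (n = 6). Slc10a1 separates Cebpa-KO and DKO from the other groups, Slc27a5 and Cyp7b1 separate Trib1-KO from the others, and Cyp7a1 overlaps in all 4 groups.

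Per kilobase of annotated exon, WT liver had its highest mean levels for Slc27a5 (8609 normalized counts per kilobase), Cyp27a1 (5851), Cyp8b1 (4967) and Slc10a1 (4463). Cyp7b1 (3813), Abcb11 (3056) and Baat (2794) came next. The receptor genes Nr1h4 (964) and Nr0b2 (386) were lower, and Cyp7a1, the rate-limiting enzyme of the classical pathway, was the lowest of the 10 at 159.

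Cyp7a1 (ENSMUSG00000028240.2, GRCm38 chr4:6265612-6275633, minus strand) showed no difference between any groups beyond its spread. Its normalized count ran from 163 to 1213 around a median of 565 in WT and from 419 to 1079 around 817 in the libraries labelled Trib1-KO. It ran from 130 to 1249 around 721 in Cebpa-KO and from 122 to 1095 around 367 in DKO. Every group thus overlapped every other, and single WT, Cebpa-KO or DKO livers differed by 7.42-fold to 9.64-fold within their group. The log2 difference from WT was 0.35 ± 0.56 in Trib1-KO (SE; 95% interval -0.80 to 1.50), 0.08 ± 0.56 in Cebpa-KO (-1.07 to 1.23) and -0.59 ± 0.56 in DKO (-1.74 to 0.56). These intervals include changes in both directions, and differences inside them were not detectable here. The within-group SD of Cyp7a1 on the log2 scale, 1.06, was at the 99th percentile of 10129 genes with a mean of at least 100.

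Cyp8b1, the hydroxylase that directs synthesis to cholic acid (ENSMUSG00000050445.4, GRCm38 chr9:121914356-121916305, minus strand, 1 exon), was lower than WT in each of the other groups. It ran from 6301 to 11188 around a median of 10317 in WT and from 4288 to 8443 around 5137 in the libraries labelled Trib1-KO. Counts in Cebpa-KO lay between 2724 and 5913 around 4445, and those in DKO between 2951 and 5076 around 4481. No Cebpa-KO or DKO liver reached the lowest WT liver, B1, while 1 library labelled Trib1-KO, D3, exceeded it. Cyp8b1 fell by 1.20 ± 0.20 (SE, log2) in Cebpa-KO (limma adjusted p = 0.000158), by 1.23 ± 0.20 in DKO (adjusted p = 0.00022) and by 0.82 ± 0.20 in Trib1-KO (adjusted p = 0.00293). The stretch below runs from 150 bases before to 30 bases after the RefSeq start of Cyp8b1 (GRCm38.p6, chr9:121916276-121916455, minus strand). It is shown because this gene fell in all 3 comparisons with WT and its window held a match. Cyp27a1 and Abcb11 fell in all 3 as well, but their windows held none and are not shown. The capitals mark the only match in the Cyp8b1 window to any motif searched.

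Cyp8b1 promoter: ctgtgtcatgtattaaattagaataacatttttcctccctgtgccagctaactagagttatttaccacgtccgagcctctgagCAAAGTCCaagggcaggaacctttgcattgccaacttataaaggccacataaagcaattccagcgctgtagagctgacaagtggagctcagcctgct

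The letters searched on both strands were TTGCNNAA for C/EBP factors, CAAGGTCA for LRH-1, CAAAGTCC for HNF4, GTTAATNAT for HNF1 and GGTCANTGA for FXR. The match above is the HNF4 form, from 67 to 60 bases before the start, and 1.42% of the 32851 RefSeq windows of 250 bases before to 50 after a start hold that form. Of the 10 genes, 6 had an entry, with 7 windows. Cyp27a1, Abcb11, Nr0b2 and Nr1h4 held none of the 5 forms in theirs, the forms for LRH-1 (1.56% of all windows), HNF1 (0.801%) and FXR (0.84%) occurred in no window of the 6 genes, and Cyp7a1, Cyp7b1, Slc27a5 and Baat had no entry. A match describes letters only, and its absence says nothing of the factor.

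Cyp27a1, the mitochondrial side-chain hydroxylase that starts the alternative pathway (ENSMUSG00000026170.6, chr1:74713574-74737892, plus strand), was likewise lower in each comparison with WT. WT livers ran from 10168 to 15103 around a median of 13229, and those labelled Trib1-KO from 7893 to 9850 around 8670. Cebpa-KO ran from 9000 to 10198 around 9612 and DKO from 8737 to 11620 around 9666. The livers labelled Trib1-KO all lay below WT, and Cebpa-KO and DKO overlapped WT only at its low end, where B3 was the lowest. Cyp27a1 fell by 0.53 ± 0.08 in Trib1-KO (limma adjusted p = 2.4e-05), by 0.39 ± 0.08 in Cebpa-KO (0.00214) and by 0.36 ± 0.08 in DKO (0.00719). In a fit of DKO and WT alone, the DKO difference no longer passed (adjusted p = 0.0616).

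Cyp7b1, the oxysterol hydroxylase of the alternative pathway and a gene known to be more active in male mouse liver (ENSMUSG00000039519.6, chr3:18071950-18243338, minus strand), had the largest log2 difference among the 10 in Trib1-KO against WT, though not in Cebpa-KO or DKO against WT. Its normalized count ran from 5726 to 14017 around a median of 7308 in WT and from 1677 to 3574 around 1940 in the libraries labelled Trib1-KO. It ran from 6447 to 11669 around 10049 in Cebpa-KO and from 7109 to 22676 around 17179 in DKO. All 6 livers labelled Trib1-KO lay below every other liver, while WT, Cebpa-KO and DKO overlapped. Cyp7b1 fell by 1.91 ± 0.26 in Trib1-KO (limma adjusted p = 3.74e-06) and stood at 0.21 ± 0.26 in Cebpa-KO (0.707). It rose by 0.88 ± 0.26 in DKO (0.0415), but leaving out any 1 of A2, A3, B1, B3, G2, G3, H1 or H3 ended that call, with adjusted p values up to 0.114 and a log2 difference of 0.74 without G3. It also ended with Mup-free scaling (adjusted p = 0.0652), with no filter on low values (0.0636), without limma's trend (0.066) and in a fit of DKO and WT alone (0.125). Cyp7b1 is itself on the list of 10 male-biased liver genes, so the counts of that list are not independent of it. Of these 10, 7 fell (Cyp7b1 and Slco1a1 among them) and 1 rose in the libraries labelled Trib1-KO. Of all tested genes, 10.9% fell and 11.8% rose in that comparison. Of 10 listed female-biased genes, 7 rose and 0 fell there (8 had an unadjusted p under 0.05). The part of these lists in the Cyp7b1 difference was not tested.

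Slc27a5 encodes the ligase that activates bile acids to their CoA esters before conjugation (ENSMUSG00000030382.15, chr7:12988346-12998192, minus strand). WT livers ran from 19524 to 22062 around a median of 21417 normalized counts and those labelled Trib1-KO from 8711 to 11309 around 10141. Cebpa-KO ran from 22841 to 27545 around 23886 and DKO from 22082 to 28190 around 23368. The Trib1-KO label thus had less than any other group, and all Cebpa-KO and DKO livers lay above all WT livers. Slc27a5 fell by 1.07 ± 0.07 in Trib1-KO (limma adjusted p = 4.82e-11). Its differences of 0.21 ± 0.07 in Cebpa-KO (0.0641) and 0.21 ± 0.07 in DKO (0.0988) did not pass, although the exact permutation test gave each the smallest p that 6 against 6 libraries allow, 0.00216 (2-sided; 0.0059 after adjustment over 60 comparisons). Scaled to library totals, both passed, at 0.25 (adjusted p = 0.0107) and 0.23 (0.026), and the Cebpa-KO difference also passed with quantile normalization (0.00517) and among genes with a mean of at least 10 (0.0472).

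Baat encodes the enzyme that then joins the activated bile acid to taurine or glycine (ENSMUSG00000039653.9, chr4:49489422-49506557, minus strand). Its levels were close in all groups: 4803 to 6295 around a median of 5390 in WT, 4017 to 5116 around 4622 in Trib1-KO, 4902 to 6346 around 5613 in Cebpa-KO and 4121 to 5455 around 5040 in DKO. Every group overlapped WT. Baat fell by 0.25 ± 0.08 in the libraries labelled Trib1-KO (limma adjusted p = 0.025), and stood at 0.05 ± 0.08 in Cebpa-KO and -0.13 ± 0.08 in DKO, where it did not pass. The call rested on the scaling and on single libraries: with Mup-free scaling the difference was 0.0024 (adjusted p = 0.987), with quantile normalization -0.10 (0.405), and without B2, C1 or D1 the adjusted p was 0.0723, 0.0654 and 0.068.

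Slc10a1 encodes NTCP, the sodium-dependent carrier that takes conjugated bile acids into hepatocytes (ENSMUSG00000021135.8, chr12:80953183-80968705, minus strand). It separated the groups with and without the Cebpa Flox/Flox label. WT livers ran from 7805 to 11636 around a median of 9843 and those labelled Trib1-KO from 9281 to 11369 around 10233. Cebpa-KO ran from 4643 to 5525 around 4782 and DKO from 5531 to 6652 around 5889. All 12 livers with the Cebpa Flox/Flox label lay below the other 12. Slc10a1 fell by 0.98 ± 0.08 in Cebpa-KO (limma adjusted p = 3.67e-09) and by 0.70 ± 0.08 in DKO (1.55e-06). In Trib1-KO, where Cebpa RNA was at 2668 against 6019 in WT, the Slc10a1 difference was 0.08 ± 0.08 (95% interval -0.08 to 0.24, adjusted p = 0.502). An RNA level does not give the level of the Cebpa protein, which was not measured here. The Slc10a1 difference passed as higher with Mup-free scaling (0.34, adjusted p = 0.000926) and with quantile normalization (0.26, 0.00669). The stretches around both RefSeq starts of Slc10a1 (GRCm38.p6, minus strand, 150 bases before to 30 after) are shown because Slc10a1 had the smallest adjusted p of the 10 genes in Cebpa-KO and in DKO against WT. The first line is chr12:80968676-80968855 and the second chr12:80968050-80968229, and capitals mark matches to the C/EBP form TTGCNNAA or its reverse complement.

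Slc10a1 upstream start: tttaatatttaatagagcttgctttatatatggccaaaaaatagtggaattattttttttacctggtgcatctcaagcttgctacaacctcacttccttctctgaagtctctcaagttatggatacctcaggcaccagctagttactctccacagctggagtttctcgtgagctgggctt
Slc10a1 downstream start: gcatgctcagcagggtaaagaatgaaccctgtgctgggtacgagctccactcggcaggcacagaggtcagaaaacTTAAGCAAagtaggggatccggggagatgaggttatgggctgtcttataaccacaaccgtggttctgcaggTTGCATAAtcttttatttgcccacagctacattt

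The downstream stretch held 2 matches, 1 on the opposite strand at 75 to 68 bases before the start and 1 spanning the start, while the upstream stretch held none. This was the only window of the 6 genes with the C/EBP form, which 10.8% of all RefSeq windows hold. Cyp8b1, which also fell in Cebpa-KO, had no such match in its window. The part of any match in the differences between groups was not tested.

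Abcb11 encodes the bile salt export pump of the canalicular membrane (ENSMUSG00000027048.15, chr2:69238282-69342616, minus strand). Its differences from WT were small and of one direction. WT livers ran from 14959 to 16691 around a median of 15454 and those labelled Trib1-KO from 11294 to 16020 around 13176. Cebpa-KO ran from 11639 to 13457 around 13010 and DKO from 11199 to 14475 around 13411. Cebpa-KO and DKO lay wholly below WT, and Trib1-KO overlapped it. Abcb11 fell by 0.30 ± 0.08 in Cebpa-KO (limma adjusted p = 0.016), by 0.25 ± 0.08 in Trib1-KO (0.022) and by 0.26 ± 0.08 in DKO (0.0487). The Trib1-KO call ended with Mup-free scaling (-0.0001), with quantile normalization (-0.11, adjusted p = 0.327), and without C1 (0.0673) or D3 (0.0618). The DKO call ended without any 1 of A1, A2, A3, B1, B2, B3, G1, G2, G3 or H1, with an adjusted p of up to 0.134, and under a pseudocount of 8 (0.0505), library totals (0.0583), no filter (0.0842), no trend (0.0838) the fit of DKO and WT alone (0.0726) or a block by column letter (0.0562).

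Nr1h4, the gene of the bile acid receptor FXR (ENSMUSG00000047638.15, chr10:89454234-89533585, minus strand), was highest in the libraries labelled Trib1-KO. WT livers ran from 1673 to 2613 around a median of 2318 and those labelled Trib1-KO from 2689 to 3263 around 3009. Cebpa-KO ran from 2461 to 2668 around 2499 and DKO from 2448 to 2907 around 2547. The livers labelled Trib1-KO all lay above WT and Cebpa-KO, and DKO overlapped both WT and Trib1-KO. Nr1h4 rose by 0.45 ± 0.08 in Trib1-KO (limma adjusted p = 0.000173). Its differences of 0.20 ± 0.08 in Cebpa-KO (0.127) and 0.26 ± 0.08 in DKO (0.0609) did not pass, but both passed without WT library B1 (0.0458 and 0.0212), and the DKO difference also passed without A1 (0.0484), with library totals (0.0455), with quantile normalization (0.0373) and among genes with a mean of at least 10 (0.0465).

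Nr0b2, the gene of the corepressor SHP (ENSMUSG00000037583.2, chr4:133553376-133556536, plus strand), differed between groups in another order than Nr1h4. Its normalized count ran from 356 to 500.0 around a median of 438 in WT and from 199 to 310 around 243 in the libraries labelled Trib1-KO. It ran from 159 to 505 around 275 in Cebpa-KO and from 384 to 632 around 561 in DKO. The livers labelled Trib1-KO all lay below WT and DKO, and Cebpa-KO spread over 3.17-fold between F3 and E1. Nr0b2 fell by 0.83 ± 0.21 in Trib1-KO (limma adjusted p = 0.00414). It stood at -0.63 ± 0.21 in Cebpa-KO (0.0545), which passed without B1 (0.0495), E1 (0.00694) or F1 (0.0217), with Mup-free scaling (0.0466) and among genes with a mean of at least 10 (0.0453), and at 0.30 ± 0.21 in DKO (0.503).

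**Figure D2:**
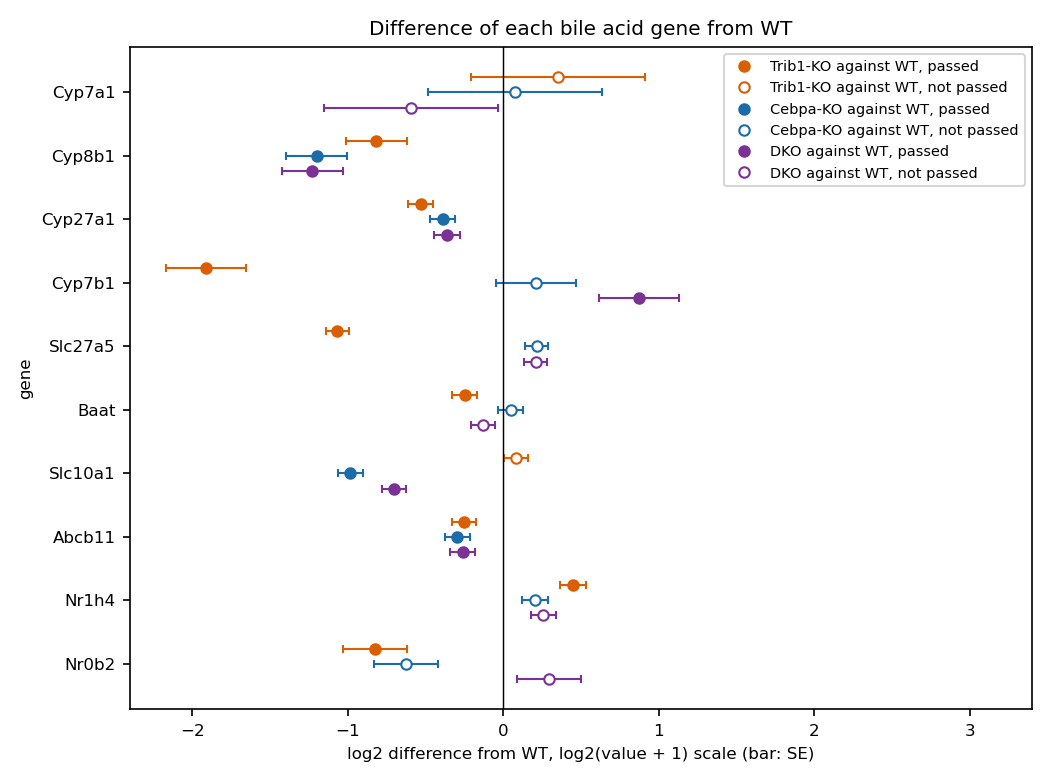
Log2 difference from WT of each of the 10 genes, on the log2(normalized count + 1) scale, with bars for the SE. Filled points passed limma at an adjusted p under 0.05 and open points did not. Cyp8b1, Cyp27a1 and Abcb11 lie to the left in all 3 groups, whereas Cyp7b1 and Slc27a5 lie to the left in Trib1-KO alone.

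Few of all tested genes separated DKO from Cebpa-KO. That comparison gives the difference that accompanies the added Trib1 Flox/Flox label when Cebpa is floxed. By limma 0 of the 10 genes passed, against 0.202% of all genes (40 of 19810, with 0.0808% higher and 0.121% lower). At that share, a count of 0 does not set the 10 genes apart from others. At an unadjusted limma p under 0.05 there were 4 (Cyp7b1, Baat, Slc10a1 and Nr0b2), and the exact permutation test gave 3 at an unadjusted p under 0.05 and 2 after adjustment. Slc10a1 was higher in all 6 DKO livers than in all 6 Cebpa-KO livers (0.712% of all genes had no overlap), at 6015 ± 495 against 4941 ± 352 (SD, n = 6), a log2 difference of 0.28 ± 0.08 (adjusted p = 0.164, exact permutation p = 0.00216, 0.0059 adjusted). Nr0b2 stood at 539 ± 86.4 in DKO and 305 ± 136 in Cebpa-KO, a log2 difference of 0.92 ± 0.21 (adjusted p = 0.0642, exact permutation p = 0.0108, 0.0232 adjusted). Nr0b2 passed without E1 (1.09, adjusted p = 0.0112), F1 (1.04, 0.0377) or H2 (1.02, 0.0401). Cyp7b1 stood at 15564 ± 6021 and 9301 ± 2109 (log2 difference 0.67 ± 0.26, adjusted p = 0.387). The 95% intervals for Cyp8b1 (-0.43 to 0.38), Cyp27a1 (-0.14 to 0.20), Slc27a5 (-0.16 to 0.14), Abcb11 (-0.13 to 0.20) and Nr1h4 (-0.11 to 0.22) bound the differences of these genes. The interval was wide for Cyp7a1 (-1.82 to 0.48) and lay below 0 for Baat (-0.34 to -0.01).

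Against the libraries labelled Trib1-KO, 3 of the 10 genes rose in DKO, 1 fell and 6 did not pass, where 30.3% of all genes passed (14.6% higher and 15.7% lower). Cyp7b1 rose by 2.79 ± 0.26 (limma adjusted p = 4.57e-09), Slc27a5 by 1.28 ± 0.07 (7.46e-13) and Nr0b2 by 1.12 ± 0.21 (0.000133). Slc10a1 fell by 0.78 ± 0.08 (1.45e-08). For these 4 genes the DKO and Trib1-KO livers did not overlap, as for 16.9% of all genes. With Mup-free scaling Cyp8b1 (-0.70), Abcb11 (-0.30) and Nr1h4 (-0.48) passed as lower too, and the higher genes made up 18.1% of all calls in place of 48.3%. Cyp8b1 (-0.53) and Nr1h4 (-0.25) also passed with quantile normalization, Nr1h4 in a fit of both groups alone (adjusted p = 0.0455), and Cyp27a1 with library totals (0.24).

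Between the single labels, Trib1-KO against Cebpa-KO, 2 of the 10 genes were higher, 3 were lower and 5 did not pass, where 32.7% of all genes passed (16.9% higher and 15.8% lower). Cyp7b1 was lower by -2.12 ± 0.26 (limma adjusted p = 3.53e-07), Slc27a5 by -1.28 ± 0.07 (6.17e-13) and Baat by -0.30 ± 0.08 (0.00518). Slc10a1 was higher by 1.07 ± 0.08 (5.59e-11) and Nr1h4 by 0.24 ± 0.08 (0.0218). The libraries did not overlap for 4 of the genes, against 18.8% of all genes. The Baat call ended with Mup-free scaling (-0.0001) and quantile normalization (-0.18, adjusted p = 0.0935), and the Nr1h4 call with scaling to library totals (0.16, 0.156) and without C3 (0.0521). Cyp8b1 (0.68) and Abcb11 (0.34) passed with Mup-free scaling, where higher genes made up 81.6% of all calls in place of 51.6%, Cyp8b1 (0.51) with quantile normalization, and Cyp27a1 (-0.23) with library totals.

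The test of the difference between differences asked whether DKO minus Cebpa-KO differed from Trib1-KO minus WT. It passed for 5 of the 10 genes, 4 with a positive and 1 with a negative value, where 12.6% of all genes passed (6.35% positive and 6.22% negative). Cyp7b1 had 2.58 ± 0.36 (limma adjusted p = 1.85e-05): it was lower with the Trib1-KO label than in WT, whereas DKO stood at 0.67 ± 0.26 from Cebpa-KO. Nr0b2 had 1.75 ± 0.29 (0.000154), with -0.83 ± 0.21 beside 0.92 ± 0.21. Slc27a5 had 1.06 ± 0.10 (6.53e-08), with -1.07 ± 0.07 beside -0.01 ± 0.07. Cyp27a1 had 0.56 ± 0.12 (0.00154) and Nr1h4 -0.39 ± 0.11 (0.0229). The value for Cyp27a1 did not pass with Mup-free scaling (0.31, adjusted p = 0.0668), nor that for Nr1h4 with scaling to library totals (-0.36, 0.0532). Positive values made up 17.3% of all calls with Mup-free scaling, in place of 50.5%. Cyp8b1 had 0.79 ± 0.28 (0.0637), which passed without B1, D3, F1, G1 or H2, the lowest adjusted p being 0.0224 without D3. Abcb11 had 0.29 ± 0.11 (0.102) and passed without C3 (0.0332) or G2 (0.0488) and with library totals (0.0418). For Slc10a1 (0.20 ± 0.11), Baat (0.07 ± 0.11) and Cyp7a1 (-1.02 ± 0.79) the test did not pass.

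Of the 45 pairs among the 10 genes, Cyp8b1 and Nr0b2 had the lowest permutation p for covariation within groups, which did not pass after adjustment. The deviations of their log2 values from the group means had a Pearson r of 0.654 over 24 libraries (permutation within groups, p = 0.00203) and a Spearman rho of 0.656 (p = 0.00219). Without the 2 libraries farthest from the median of Cyp8b1, F2 and B1, r was 0.584. Within single groups r was 0.662 in WT, 0.397 in Trib1-KO, 0.834 in Cebpa-KO and 0.647 in DKO. After adjustment over the pairs the permutation p was 0.0914 for r and 0.0986 for rho. Both genes of a library share its depth and size factor.

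**Figure D3:**
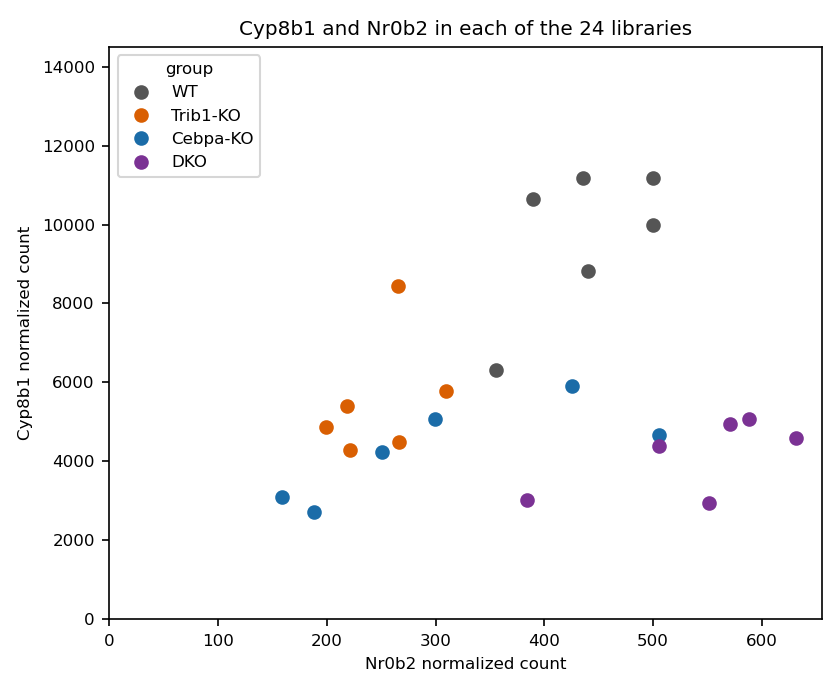
Normalized counts of Cyp8b1 (vertical axis) against Nr0b2 (horizontal axis), 1 point per liver, coloured by group, both axes linear from 0. Within Cebpa-KO the livers with least Nr0b2, from 159, also lie low in Cyp8b1, and DKO livers combine Nr0b2 of 384 to 632 with Cyp8b1 of 2951 to 5076.

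Other genes of the pathway were read from lists by role. Of 16 further synthesis enzymes, 4 rose and 5 fell in the libraries labelled Trib1-KO, 2 rose and 4 fell in Cebpa-KO, and 3 rose and 1 fell in DKO, each against WT (22.7%, 9.82% and 6.09% of all genes passed). With Mup-free scaling the Trib1-KO counts were 6 and 3 and the list median went from -0.18 to 0.07, and with quantile normalization they were 5 and 3. Amacr, the racemase of side-chain shortening, stood at 1560 in Trib1-KO, 3701 in Cebpa-KO and 3840 in DKO against 3054 in WT (mean normalized counts). It fell by 0.96 ± 0.07 in Trib1-KO and rose by 0.29 ± 0.07 in Cebpa-KO (0.24 with Mup-free scaling, where it did not pass, adjusted p = 0.066) and 0.33 ± 0.07 in DKO. Slc27a2, a ligase for very long chain fatty acids and bile acid precursors, fell by 0.78 ± 0.07 in Trib1-KO. Akr1c14 and Akr1c6, reductases of the same family, fell there by 0.83 ± 0.13 and 0.43 ± 0.09, Akr1c6 not passing with Mup-free scaling (-0.18, adjusted p = 0.134) or quantile normalization (-0.22, 0.0771). Cyp39a1, an oxysterol hydroxylase, rose by 1.20 ± 0.26 in Trib1-KO and fell by 1.14 ± 0.26 in Cebpa-KO. In the difference between differences, 4 of the 16 enzymes passed, with positive values, against 12.6% of all genes: Amacr (1.01), Slc27a2 (0.77), Akr1c14 (0.96) and Acot8 (0.49). With Mup-free scaling and with quantile normalization, 3 passed as positive and 1 as negative. Acot8 did not pass with Mup-free scaling (adjusted p = 0.374) or library totals (0.0549), nor Slc27a2 with quantile normalization (0.0562).

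Among 4 further uptake transporters, 1 rose and 2 fell in Trib1-KO, and 1 fell in Cebpa-KO and in DKO. For this and the canalicular list, the shares of all tested genes passing against WT were 22.7% in Trib1-KO, 9.82% in Cebpa-KO and 6.09% in DKO. Slco1a4 fell by 1.93 ± 0.24 and Slco1a1 by 1.16 ± 0.24 in Trib1-KO, both organic anion carriers of the sinusoidal membrane. Slco1b2, another such carrier, was lower than WT in both Cebpa-floxed groups: it fell by 0.52 ± 0.11 in Cebpa-KO and 0.43 ± 0.11 in DKO, and rose by 0.32 ± 0.11 in Trib1-KO. Among 7 genes of canalicular export and bile lipids, 2 rose and 1 fell in Trib1-KO, 2 rose and 3 fell in Cebpa-KO, and 2 rose and 1 fell in DKO. With Mup-free scaling the Trib1-KO counts of this list were 4 higher and 1 lower. Abcb4, the phospholipid floppase of bile, rose by 0.37 ± 0.07 in Trib1-KO and fell by 0.49 ± 0.07 in Cebpa-KO and 0.39 ± 0.07 in DKO. Abcg2, an efflux pump, had the opposite signs, falling by 0.61 ± 0.11 in Trib1-KO and rising by 0.78 ± 0.11 and 0.66 ± 0.11. The half-transporter gene Abcg8, which exports sterols with Abcg5, fell by 0.63 ± 0.10 in Cebpa-KO.

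Of the 4 genes of basolateral overflow, 3 were tested, and Slc51a was listed at 0 in all 24 libraries. Of these 3, 1 rose and 1 fell in Trib1-KO and 1 rose in each of the Cebpa-floxed groups. Among all tested genes, 22.7% passed in Trib1-KO, 9.82% in Cebpa-KO and 6.09% in DKO, each against WT. With Mup-free scaling the Trib1-KO counts were 2 higher and 0 lower. Abcc4, an efflux pump, stood at 210 in WT, 263 in Trib1-KO, 385 in Cebpa-KO and 386 in DKO, and rose by 0.94 ± 0.24 in Cebpa-KO and 0.90 ± 0.24 in DKO. Abcc3, of the same family, fell by 0.49 ± 0.14 in Trib1-KO, but did not pass with Mup-free scaling (-0.24, adjusted p = 0.201) or quantile normalization (-0.31, 0.108). Slc51b, the partner of Slc51a, rose there by 1.80 ± 0.52 from a low level, 15.6 against 5.30 in WT.

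**Figure D4:**
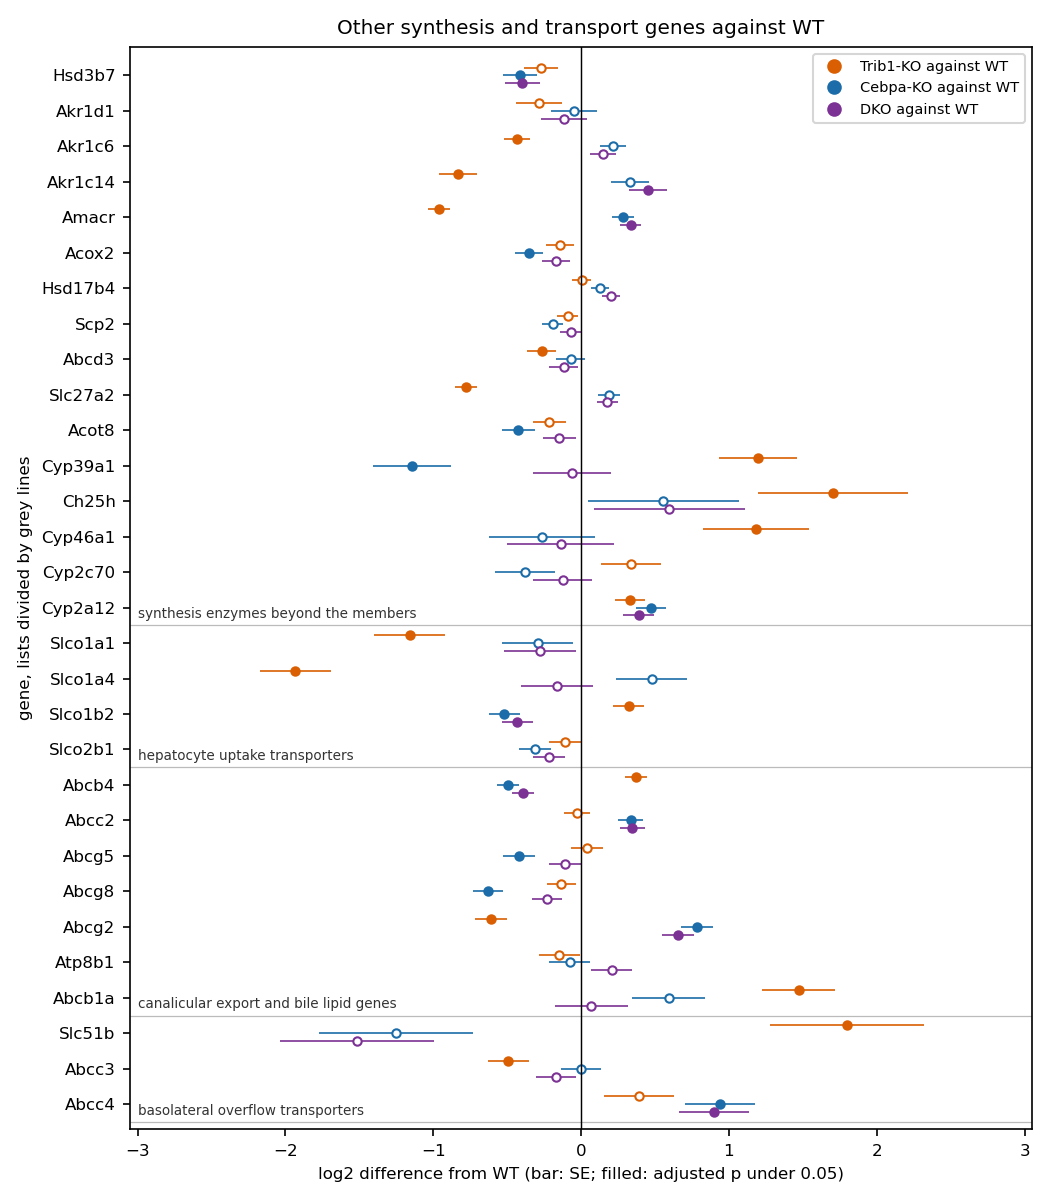
Log2 difference from WT (horizontal axis) of 30 further synthesis and transport genes, in 4 lists divided by grey lines. Bars give the SE, and filled points passed limma at an adjusted p under 0.05. Cyp39a1 and Abcb4 lie to the right in Trib1-KO and to the left in Cebpa-KO, and Amacr and Abcg2 the other way.

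For the regulators and detoxification genes in this paragraph, the shares of all tested genes passing against WT were 22.7% in Trib1-KO, 9.82% in Cebpa-KO and 6.09% in DKO. Of 23 further regulators, 21 were tested, and 2 rose and 6 fell in Trib1-KO, with 1 rising and 2 falling in Cebpa-KO and in DKO. With Mup-free scaling the Trib1-KO counts were 5 and 2, and the list median went from -0.13 to 0.12. Nr1i3, the gene of the xenobiotic receptor CAR, fell by 1.39 ± 0.15, Nr1d1, a repressor of the circadian clock, by 0.68 ± 0.12, Fgfr4, the liver receptor for the gut hormone FGF15, by 0.51 ± 0.11, and Nr5a2, the gene of LRH-1, by 0.40 ± 0.08 in Trib1-KO. With Mup-free scaling Fgfr4 (-0.26, adjusted p = 0.0915) and Nr5a2 (-0.15, 0.162) did not pass. Dbp, a clock-controlled activator, rose by 1.25 ± 0.27 in Cebpa-KO and 0.91 ± 0.27 in DKO, the latter not passing with Mup-free scaling (adjusted p = 0.0584). Fgf15 was listed at 0 in all 24 libraries. All 7 listed genes of bile acid detoxification passed in Trib1-KO, 4 higher and 3 lower, while 1 fell in Cebpa-KO, and in DKO 0 passed by limma (3 had an unadjusted p under 0.05). The sulfotransferase gene Sult2a1 had a mean of 214 in Trib1-KO, and of 0.31 in WT, 0.34 in Cebpa-KO and 0 in DKO. Sult2a1 is also on the list of female-biased genes, so the counts of these lists are not independent. Sult2a2 had 210 against 0.67 in WT, and Sult2a8 fell by 0.97 ± 0.11. Reads of the near-identical Sult2a genes may be split wrongly, so their single values are uncertain.

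Markers of the cell types in whole liver moved with the Trib1-KO label. Of all tested genes, 22.7% passed in Trib1-KO against WT, 9.82% in Cebpa-KO and 6.09% in DKO. Of 9 tested hepatocyte markers, 8 fell and 0 rose in Trib1-KO (8 had an unadjusted p under 0.05). Their summed level was 730636 to 855755 against 1883730 to 2651750 in WT. Alb, at 290593 to 2590000 over the 24 libraries, weighed most in these sums, with a mean of 1505000 beside 171100 for Serpina1c, the next highest. As a list, these markers had a median log2 difference of -0.86 in Trib1-KO, 0.07 in Cebpa-KO and 0.03 in DKO. With Mup-free scaling and with quantile normalization 7 fell and 0 rose in Trib1-KO, and Asgr1 did not pass there (0.039 and 0.0079). Without such rescaling, 10 of 12 Kupffer cell and macrophage markers rose and 0 fell in Trib1-KO (10 had an unadjusted p under 0.05), with sums of 18896 to 22138 against 9915 to 17988. In Cebpa-KO and DKO against WT, 0 of the 12 passed (2 and 4 had an unadjusted p under 0.05), and the hepatocyte sums were 2562340 to 3376500 and 2462780 to 2919780. Stellate cell markers (4 of 10 rose, 0 fell), lymphocyte markers (4 of 10 rose, 0 fell) and sinusoidal endothelial markers (3 of 10 rose, 2 fell) passed in part in Trib1-KO, with 6, 6 and 5 of the 10 at an unadjusted p under 0.05. The endothelial counts were 7 higher and 0 lower with Mup-free scaling and 1 higher and 2 lower with library totals. Of 11 tested cholangiocyte markers, which bear on bile ducts, 0 rose and 3 fell in Trib1-KO, 2 rose and 1 fell in Cebpa-KO, and 1 rose and 2 fell in DKO. Their sums were 3652 to 4687 in WT, 3318 to 3875 in Trib1-KO, 5409 to 11346 in Cebpa-KO and 5447 to 9145 in DKO. Spp1, with a mean of 2193 over the 24 libraries, weighed most in these sums, beside 21.9 for Krt19 and 28.0 for Epcam. The median log2 difference of the list was -0.68 in Trib1-KO, -0.23 in Cebpa-KO and -0.20 in DKO, so the higher sums do not describe the whole list. Of 3 tested enterocyte markers, 1 fell in Trib1-KO and 1 rose in Cebpa-KO, and Fabp6 and Sis were listed at 0 in all 24 libraries. Slc10a2, the bile acid carrier of cholangiocytes and ileum and a marker in both lists, rose by 0.87 ± 0.20 in Cebpa-KO, from 552 to 999. Its mean over the 24 libraries, 757.5, was far above those of Krt19 and Epcam, and the cells it came from were not tested. The part of these markers and of the Mup share in the differences of the 10 genes was not tested.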

How the data were processed

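RNA of whole liver was sequenced in 24 libraries, 6 mice per group. The authors deposited 1 gene table whose values are a non-negative signal; Salmon, DESeq2 and GRCm38.p6 are named per the submitters' processing notes, without versions. The values read as estimated counts divided by size factors. Every column had a group, taken from its name. Members and lists were chosen with earlier results of these data known. Genes with a mean of at least 1 (19810 of 54432) were tested as log2(value + 1) with limma 3.58.1 (trend) in R 4.3.3, in 1 model of 4 group means, with Benjamini-Hochberg adjustment and a threshold of 0.05. Exact permutation tests (2-sided) were added for single members. Named genes were the 10 members, the 2 targeted genes and, per list, up to 4 called genes with the smallest adjusted p in each comparison; 4 genes listed at 0 (Slc51a, Fgf15, Fabp6 and Sis) were added after their values were seen. Coordinates are from GENCODE M21, promoters from RefSeq GRCm38.p6. Per the labels, mice came in 2 cohorts of 3 per group, which no label ties to columns, so no cohort term was fitted. The column letters also split each group into 2 sets of 3, and a block by letter was added after the data were seen.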

Additional observations from a re-analysis of the deposited data

Results flagged for a closer look

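Of 40 sets of 6 livers (10 genes in 4 groups), 3 had 1 library far from the rest by Dixon's ratio, the gap to the nearest library over the whole range, where chance gives about 1 in 20. They were Cyp8b1 in Trib1-KO, with D3 highest (ratio 0.642), Cyp7b1 in Trib1-KO, with D2 highest (0.774), and Slc27a5 in Cebpa-KO, with E3 highest (0.635).

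By the tested difference between differences, DKO minus Cebpa-KO differed from Trib1-KO minus WT for Cyp27a1 (0.56), Cyp7b1 (2.58), Slc27a5 (1.06), Nr1h4 (-0.39) and Nr0b2 (1.75). Cyp27a1 did not pass with Mup-free scaling (limma adjusted p = 0.0668), nor Nr1h4 with library totals (0.0532).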

How the results depend on the processing

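Robust limma and a pseudocount of 0.5 left every member and gene count on its side of the threshold. Mup-free scaling shifted the median of all genes by 0.23 in Trib1-KO against WT, -0.27 in DKO against Trib1-KO, 0.27 in Trib1-KO against Cebpa-KO and -0.23 in the difference between differences, and moved the share of higher calls in Trib1-KO against WT from 51.8% to 84.5%. It reversed Baat in Trib1-KO against WT (0.0024), Cyp27a1 (-0.12) and Baat (-0.17) in DKO against Trib1-KO, Cyp27a1 (0.16) and Nr0b2 (0.096) in Trib1-KO against Cebpa-KO, and Baat (-0.18) and Slc10a1 (-0.047) in the difference between differences, and raised the members called in DKO against Trib1-KO from 4 to 7. Library totals reversed Abcb11 in DKO against Trib1-KO (0.064) and in Trib1-KO against Cebpa-KO (-0.039), and quantile normalization Cyp27a1 (0.00998) in the latter and Baat (-0.069) in the difference between differences. In DKO against WT, 5 members were called, 3 without a filter or without limma's trend, 2 in a fit of these groups alone (793 genes against 1206) and 3 to 5 with 1 library left out. In DKO against Cebpa-KO, 40 genes were called, 25 without a filter, 23 without the trend, 18 from these groups alone, and 18 (without G2) to 63 (without F3) with 1 library left out, with 0 to 1 members. With 1 library left out, values that changed sign ranged from -0.0062 to 0.57 for Cyp7a1 in Trib1-KO against WT, -0.28 to 0.51 in Cebpa-KO against WT and -0.16 to 0.49 in Trib1-KO against Cebpa-KO. In DKO against Cebpa-KO they ranged from -0.15 to 0.075 for Cyp8b1, -0.0500 to 0.0300 for Slc27a5 and -0.021 to 0.062 for Cyp27a1. Those of Abcb11 ranged from -0.055 to 0.046 in DKO against Trib1-KO and -0.011 to 0.089 in Trib1-KO against Cebpa-KO. The cause of these changes was not tested.

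The column numbers are not shared in the sample titles and nothing says that they pair livers. With that number as a replicate block, 61 genes and 1 member were called in DKO against Cebpa-KO (Nr0b2, 0.92, limma adjusted p = 0.0273), Nr0b2 also passed in Cebpa-KO against WT (-0.63, 0.0278), and 0 other member calls changed. With the column letter (first or second of its group) as a block, an alternative chosen after seeing the data, Abcb11 in DKO against WT did not pass (-0.26, 0.0562), and 0 other member calls changed.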
